A study of Mus musculus with 2 samples.

Results

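The conjugating enzymes described here are the UDP-glucuronosyltransferases (Ugt), the cytosolic sulfotransferases (Sult) and the glutathione transferases (Gst, with the microsomal Mgst genes). They were chosen by symbol alone, as every listed gene whose symbol begins with Ugt or Sult and a digit, with Gst, a class letter (a, k, m, o, p, t or z) and a digit, or with Mgst and a digit. That gave 63 of the 23284 genes listed, namely 21 Ugt, 18 Sult and 24 Gst and Mgst genes. The study compared polyadenylated RNA from the small intestinal epithelia of miR-215-/- mice (knockout) with that of miR-215+/+ mice (wild-type). Each genotype is represented by 1 library, which leaves every difference below without a replicate check and without a p-value. Not given in the sources used here are the strain, sex and age of the mice, the way the knockout was made and whether animals were pooled.

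Conjugating enzymes attach a polar group to lipophilic molecules, which makes them easier to excrete. The Ugt enzymes sit in the endoplasmic reticulum and transfer glucuronic acid from UDP-glucuronic acid to bilirubin, steroids, bile acids, phenols and drugs. The Sult enzymes are cytosolic and transfer a sulfonate group from the donor PAPS to phenols, thyroid hormones, catecholamines and sterols. The Gst enzymes join the tripeptide glutathione to reactive electrophiles. In the intestine these enzymes act in enterocytes, the absorptive cells, on compounds taken up from food and bile before they reach the blood.

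Values are FPKM, a level scaled by transcript length and by sequencing depth, and they can therefore be compared between genes. Genes at 1 FPKM or more in at least 1 library, 11504 in all, were kept for log2 ratios, computed as log2((knockout + 1)/(wild-type + 1)). Adding 1 makes differences look smaller where levels are low. FPKM ratios, by contrast, are of knockout to wild-type without the added 1. A gene is counted as lower or higher when its log2 ratio passes 2-fold or 1.5-fold, which are rules of size. The summed FPKM were 683884 in the knockout library and 750631 in the wild-type library. Steps between the lowest values put a transcript of 2 kb at 1 FPKM at about 18.1 fragments in the knockout library and 17.4 in the wild-type library. Counting intervals of 95% (exact Clopper-Pearson) were made from such estimated fragments and say nothing of how animals or preparations vary. Mir215 itself was listed at 0 in the knockout library and at 137 FPKM in the wild-type library. The gene is 112 nt long, and the lowest wild-type value above 0 among 54 genes within 5 nt of that length was 140.1 FPKM, so the library labels could not be checked against it.

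The deleted microRNA and miR-192, which is made from another locus, are shown because they share a seed, the stretch that pairs with target messages. Capitals mark the seed, bases 2 to 8, in the mature sequences of RefSeq (GRCm38.p6; chr1:185313610-185313630 and chr19:6264857-6264877, both on the plus strand).
miR-215-5p: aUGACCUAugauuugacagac
miR-192-5p: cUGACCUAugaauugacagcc
The complement of this seed, TAGGTCA, was looked for in the longest annotated 3′ UTR of each gene. It was in 0 of the 37 kept conjugating enzymes and in 0 of their 80 annotated UTR transcripts, against 703 of 10081 kept genes (6.97%). The 3′ UTRs of the conjugating enzymes were shorter, with a median of 537 bases against 1278 over all kept genes. The result says only that these letters are not in those UTRs.

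Of the 63 conjugating enzymes, 37 were kept, 8 had traces in at least 1 library and 18 were listed at 0 in both. Of the 37, 34 had a lower value in the knockout library and 3 a higher one (Ugt1a6b, Gstm5 and Sult1a1), beside 56% of all kept genes with a lower value. At 2-fold, 7 were lower (2.04% of all kept genes were) and 0 higher (1.34% of all kept genes). At 1.5-fold, 19 of 37 were lower (7.26% of all kept genes) and 3 higher (4.83%). The median log2 ratio of the 37 was -0.70, beside -0.05 over all kept genes, whose quartiles were -0.27 and 0.18. Among genes at 10 FPKM or more in at least 1 library, 31 of 32 conjugating enzymes were lower (64.8% of all 6381 such genes) and 17 were lower at 1.5-fold (8.56%). Of the 37, 21 have transcripts of at most 1517 nt, and 10 of these 21 were lower at 1.5-fold, beside 13.3% of 2281 kept genes of that length. With the deposited values scaled to equal sums, 31 members were lower and 6 higher, as Sult2b1, Mgst2 and Gstz1 turned above 0. In bulk RNA such as this, fewer cells of a type and less RNA per cell cannot be told apart.

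Summed over the members, conjugating enzymes came to 4071 FPKM in the knockout library and 6007 FPKM in the wild-type library, an FPKM ratio of 0.678 (counting interval 0.669 to 0.687). They took 0.595% of the summed FPKM in the knockout library and 0.8002% in the wild-type library. By summed level the glutathione family was the largest in both libraries. Glucuronidation and sulfation changed places, with the Ugt sum under the Sult sum in the knockout library and above it in the wild-type library. The counting interval of the FPKM ratio lay wholly below 1 for 30 of the 37, wholly above 1 for Ugt1a6b and Gstm5, and included 1 for 5. Over the 11402 kept genes with a transcript length, 30.3% had such an interval wholly below 1 and 19.6% wholly above 1.

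**Figure D1:**
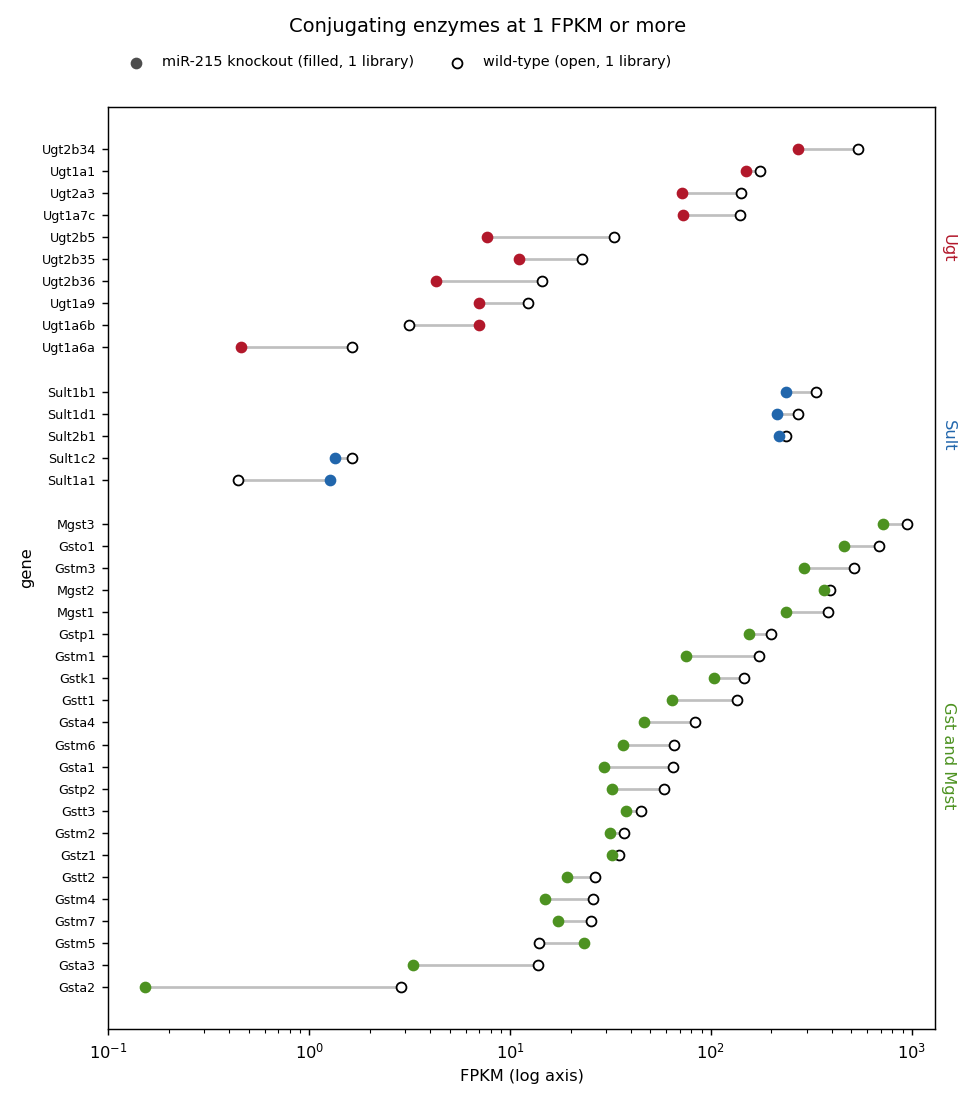
FPKM (log axis) of the 37 conjugating enzymes at 1 FPKM or more in at least 1 library, 1 row per gene, with the knockout library as filled points and the wild-type library as open points. The filled point lies left of the open point for 34 genes and right of it for Ugt1a6b, Sult1a1 and Gstm5; Ugt2b34 stands at 273 and 543 FPKM.

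Glucuronidation had the lowest median and the lowest summed ratio of the 3 families. Of 21 Ugt genes 10 were kept, 9 of them lower and 1 higher (56% of all kept genes were lower). At 2-fold 2 were lower (2.04% of all kept genes) and at 1.5-fold 8 were (7.26%). The median log2 ratio was -0.95. The Ugt sum was 605 FPKM in the knockout library and 1086 FPKM in the wild-type library, a ratio of 0.557 (0.546 to 0.568). The Ugt2 genes and the Ugt1a genes differed in extent, and they are given in turn.

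The Ugt2 genes encode enzymes best known for steroids, bile acids and fatty acids. All 5 kept ones were lower at 1.5-fold (7.26% of all kept genes). Their sum was 368 FPKM in the knockout library and 755 FPKM in the wild-type library, a ratio of 0.487 (0.475 to 0.4996). Ugt2b34 (chromosome 5, 86889767 to 86906937) was at 273 FPKM in the knockout library and 543 FPKM in the wild-type library, a ratio of 0.502 (0.489 to 0.516). It made up 45.1% of the Ugt sum in the knockout library and 49.9% in the wild-type library. Ugt2a3 (87324972 to 87337195) was at 72.0 FPKM in the knockout library and 142 FPKM in the wild-type library, a ratio of 0.507 (0.475 to 0.542). Ugt2b35 (87000860 to 87013275) was at 11.1 FPKM in the knockout library and 22.8 FPKM in the wild-type library, a ratio of 0.487 (0.427 to 0.554). These 3 genes thus stood close together, with log2 ratios of -0.99, -0.97 and -0.98, although their levels spanned more than an order of magnitude.

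The 2 Ugt genes with the lowest log2 ratios were neighbours on chromosome 5. Ugt2b5 (87124960 to 87140318) was at 7.68 FPKM in the knockout library and 32.7 FPKM in the wild-type library, 4.26-fold lower (3.50 to 5.21), from about 128 and 525 fragments. Ugt2b36 (87065927 to 87092555) was at 4.29 FPKM in the knockout library and 14.4 FPKM in the wild-type library, 3.36-fold lower (2.56 to 4.41). Ugt2b36 shares 0.326% of its 50-base windows with another annotated gene. Ugt2b5 shares 41.7%, with Ugt2b38 as the main partner, but Ugt2b38 was itself low, at 0.293 FPKM in the knockout library and 0.730 in the wild-type library. The sum of Ugt2b5 and Ugt2b38 was 7.97 FPKM in the knockout library and 33.5 FPKM in the wild-type library.

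The promoters of the kept Ugt2b genes are printed from 100 bases before to 50 bases after the RefSeq start site (GRCm38.p6), because Ugt2b5 and Ugt2b36 had the lowest log2 ratios, -1.96 and -1.54, and stood apart from Ugt2b35 and Ugt2b34. Capitals mark runs of at least 10 bases that recur in another of these 4 windows. The windows are chr5:87140291-87140440 (minus strand) for Ugt2b5, chr5:87092506-87092655 (minus) for Ugt2b36, chr5:87000760-87000909 (plus) for Ugt2b35 and chr5:86906888-86907037 (minus) for Ugt2b34.
Ugt2b5: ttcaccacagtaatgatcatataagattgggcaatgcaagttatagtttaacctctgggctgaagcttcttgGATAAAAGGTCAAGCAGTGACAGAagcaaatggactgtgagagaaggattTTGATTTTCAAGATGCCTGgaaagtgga
Ugt2b36: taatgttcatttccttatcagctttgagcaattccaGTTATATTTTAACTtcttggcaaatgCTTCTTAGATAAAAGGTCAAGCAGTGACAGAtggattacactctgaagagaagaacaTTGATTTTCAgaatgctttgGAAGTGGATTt
Ugt2b35: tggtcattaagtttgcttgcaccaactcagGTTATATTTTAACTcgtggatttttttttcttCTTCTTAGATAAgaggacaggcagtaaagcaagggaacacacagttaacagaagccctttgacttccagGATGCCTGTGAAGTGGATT
Ugt2b34: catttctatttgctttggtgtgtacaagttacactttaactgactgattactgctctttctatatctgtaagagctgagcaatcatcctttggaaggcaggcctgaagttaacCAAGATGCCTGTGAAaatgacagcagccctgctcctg
Ugt2b5 and Ugt2b36 share the 24-base run GATAAAAGGTCAAGCAGTGACAGA, which is in the promoters of 3 of 27025 genes. The third is Ugt2b37, which lies next to Ugt2b5 and was listed at 0 in both libraries. The run is a description of these windows and was not tested as a site.

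The Ugt1a genes are made from 1 locus, in which each has its own start exon and all share the remaining exons, so fragments from the shared exons cannot be assigned to 1 gene by sequence. Their sum was 237 FPKM in the knockout library and 331 FPKM in the wild-type library, a ratio of 0.715 (0.691 to 0.741). Ugt1a1 (chromosome 1, 88211959 to 88218997), the bilirubin enzyme, was at 149.6 FPKM in the knockout library and 175 FPKM in the wild-type library, a ratio of 0.855 (0.813 to 0.897). Ugt1a7c (88095062 to 88220002) was at 72.8 FPKM in the knockout library and 139 FPKM in the wild-type library, a ratio of 0.524 (0.497 to 0.552). Within the locus Ugt1a1 was thus nearer to 1 than Ugt1a7c. Its share of the Ugt1a sum was 63.1% in the knockout library and 52.8% in the wild-type library. Ugt1a9 (88070800 to 88218997) was at 6.99 FPKM in the knockout library and 12.3 FPKM in the wild-type library, a ratio of 0.568 (0.458 to 0.704).

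Ugt1a6a and Ugt1a6b, whose products act on small planar phenols, differed in opposite directions. Ugt1a6b (88103252 to 88219003) was at 7.01 FPKM in the knockout library and 3.13 FPKM in the wild-type library, a ratio of 2.24 (1.65 to 3.04). Ugt1a6a (88134809 to 88218997) was at 0.459 FPKM in the knockout library and 1.63 FPKM in the wild-type library, about 10 and 33 fragments. All 50-base windows of Ugt1a6a (100%) and 80.7% of those of Ugt1a6b are shared with Ugt1a7c, which was far more abundant. The values of Ugt1a6a and Ugt1a6b, and their sum, therefore rest on how shared fragments were assigned.

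Sulfation had the median and the summed ratio nearest to equality. Of 18 Sult genes 5 were kept, 4 lower and 1 higher (56% of all kept genes were lower). At 2-fold 0 were lower (2.04% of all kept genes) and 0 higher (1.34%), and at 1.5-fold 0 were lower (7.26%). With 5 genes, these counts of 0 are no departure from those shares. The median log2 ratio was -0.17. The Sult sum was 670.4 FPKM in the knockout library and 841 FPKM in the wild-type library, a ratio of 0.797 (0.777 to 0.817). Nearly all of it came from 3 genes, which together stood at 668 FPKM in the knockout library and 839 FPKM in the wild-type library.

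Sult1b1 (chromosome 5, 87513339 to 87538195), a sulfotransferase of thyroid hormones and small phenols, was at 236 FPKM in the knockout library and 333 FPKM in the wild-type library, a ratio of 0.709 (0.686 to 0.734). Sult1d1 (chromosome 5, 87554645 to 87569027), which acts on catecholamines in mice, was at 214 FPKM in the knockout library and 270.1 FPKM in the wild-type library, a ratio of 0.792 (0.762 to 0.823). Sult2b1 (chromosome 7, 45729983 to 45784669), which sulfates cholesterol and related sterols, was at 217 FPKM in the knockout library and 236 FPKM in the wild-type library, a ratio of 0.922 (0.870 to 0.978). The 3 abundant genes were therefore lower by different amounts, and Sult2b1 turned above 0 on the log2 scale when the libraries were scaled to equal sums or equal upper quartiles. Sult1c2 rested on about 22 fragments in the knockout library and 26 in the wild-type library, and its interval of 0.440 to 1.496 included 1. Sult1a1, the general phenol sulfotransferase, was at 1.28 FPKM in the knockout library and 0.441 FPKM in the wild-type library. About 15 and 5 fragments stood behind them, with a ratio interval of 0.998 to 10.2. The hydroxysteroid and bile acid genes Sult2a1 to Sult2a7 and the oestrogen sulfotransferase gene Sult1e1 were listed at 0 in both libraries.

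The glutathione family had the most members and the highest level. Of 24 genes 22 were kept, 21 lower and 1 higher (56% of all kept genes were lower). At 2-fold 5 were lower (2.04% of all kept genes) and at 1.5-fold 11 were (7.26%). The median log2 ratio was -0.64. The sum was 2796 FPKM in the knockout library and 4079 FPKM in the wild-type library, a ratio of 0.685 (0.673 to 0.698). The classes within the family differed in extent, with summed ratios from 0.478 for alpha to 0.918 for zeta.

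All 4 alpha-class genes were lower at 1.5-fold (7.26% of all kept genes), 3 of them at 2-fold (2.04%). Their median log2 ratio, -1.43, lies midway between Gsta1 and Gsta2, which share much of their sequence. Gsta2 rests on about 1 fragment in the knockout library and 18 in the wild-type library. The class sum was 79.0 FPKM in the knockout library and 165 FPKM in the wild-type library, a ratio of 0.478 (0.433 to 0.529). Gsta3 (chromosome 1, 21240589 to 21265661), whose product detoxifies the epoxide of aflatoxin B1 in mice, was at 3.27 FPKM in the knockout library and 13.8 FPKM in the wild-type library, 4.22-fold lower (2.64 to 7.11) from about 22 and 90 fragments. Gsta4 (chromosome 9, 78182774 to 78209349), which removes the lipid peroxidation product 4-hydroxynonenal, was at 46.4 FPKM in the knockout library and 83.6 FPKM in the wild-type library, a ratio of 0.555 (0.486 to 0.634). Neither gene shares a 50-base window with another annotated gene.

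Gsta1 and Gsta2, genes inducible by antioxidants, are near-identical over much of their length. Gsta1 (chromosome 9, 78230656 to 78242684) was at 29.2 FPKM in the knockout library and 64.9 FPKM in the wild-type library, 2.22-fold lower (1.87 to 2.66). Gsta2 (chromosome 9, 78331018 to 78355788) was at 0.153 FPKM in the knockout library and 2.85 FPKM in the wild-type library, about 1 and 18 fragments, with a ratio interval of 0.00128 to 0.339. Of their 50-base windows, 89.7% and 64.2% are shared with another annotated gene, mainly with the predicted gene Gm3776 for Gsta1 and with Gsta1 for Gsta2. Summed over these 3 genes, the level was 32.02 FPKM in the knockout library and 79.0 FPKM in the wild-type library, a ratio of 0.406. The likeness extends to their promoters, which are printed for that reason over the same span as above (chr9:78230569-78230718, plus strand, for Gsta1 and chr9:78347096-78347245, minus strand, for Gsta2), with capitals for runs of at least 10 bases found in both windows.
Gsta1: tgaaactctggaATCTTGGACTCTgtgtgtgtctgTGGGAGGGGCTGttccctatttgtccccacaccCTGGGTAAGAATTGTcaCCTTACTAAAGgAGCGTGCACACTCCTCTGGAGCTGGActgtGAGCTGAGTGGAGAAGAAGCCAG
Gsta2: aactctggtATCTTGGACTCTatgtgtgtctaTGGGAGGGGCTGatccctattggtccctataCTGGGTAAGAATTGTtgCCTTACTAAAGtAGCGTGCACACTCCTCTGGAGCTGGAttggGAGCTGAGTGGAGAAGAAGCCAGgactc
The capitals cover 99 of 150 bases in each window. The longest run, AGCGTGCACACTCCTCTGGAGCTGGA, is in the promoters of 3 of 27025 genes, Gsta1, Gsta2 and Gm3776.

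The mu class is encoded by 7 kept genes on chromosome 3. Of these 6 were lower (56% of all kept genes), 4 at 1.5-fold (7.26%) and 1 at 2-fold (2.04%). The 7 genes had a median log2 ratio of -0.76. Their sum was 490.5 FPKM in the knockout library and 858 FPKM in the wild-type library, a ratio of 0.571 (0.552 to 0.591). Gstm3 (107963696 to 107969283) was the most abundant, at 292 FPKM in the knockout library and 518 FPKM in the wild-type library, a ratio of 0.563 (0.539 to 0.588). Gstm1 (108012255 to 108017973), a major mu enzyme of mouse liver, was at 75.1 FPKM in the knockout library and 173 FPKM in the wild-type library, 2.30-fold lower (2.12 to 2.501). Gstm3 and Gstm1 share 28.8% and 23.1% of their 50-base windows with other annotated genes, in part pseudogenes. Gstm6 was at 36.3 FPKM in the knockout library and 65.5 FPKM in the wild-type library, and Gstm4 at 14.9 FPKM in the knockout library and 26.0 FPKM in the wild-type library. The FPKM ratios of Gstm6 and Gstm4, 0.554 and 0.575, were near that of Gstm3. Gstm7 had a ratio of 0.685 (0.570 to 0.824), and the interval of Gstm2, 0.723 to 1.01, included 1.

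Gstm5 (107895821 to 107898686), a mu-class gene best known from testis and brain, was the exception. It was at 23.3 FPKM in the knockout library and 13.9 FPKM in the wild-type library, a ratio of 1.68 (1.30 to 2.18) from about 171 and 98 fragments. It shares no 50-base window with another annotated gene. Markers of smooth muscle and fibroblasts were higher in the same knockout library, as given below, and their part in the Gstm5 value was not tested.

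Of the theta class, Gstt1 (chromosome 10, 75783813 to 75798584), which acts on small halogenated compounds, was at 63.8 FPKM in the knockout library and 135 FPKM in the wild-type library, 2.12-fold lower (1.91 to 2.36). Its neighbours Gstt2 and Gstt3 were nearer to 1, with ratios of 0.723 (0.606 to 0.864) and 0.840 (0.754 to 0.936), and Gstt4 was listed at 0 in both libraries. The pi-class genes Gstp1 and Gstp2 share 62.3% and 72.6% of their 50-base windows, mostly with each other, and are best read together, at 187 FPKM in the knockout library and 258 FPKM in the wild-type library, a ratio of 0.727 (0.672 to 0.785). Taken apart, Gstp1 was at 155 FPKM in the knockout library and 199 FPKM in the wild-type library, and Gstp2 at 32.1 FPKM in the knockout library and 58.6 FPKM in the wild-type library. By summed FPKM the theta class, with a ratio of 0.584 (0.544 to 0.627), stood near the mu class and the pi class nearer to 1.

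Gsto1 (chromosome 19, 47854970 to 47864790), an omega enzyme that reduces dehydroascorbate, was at 461 FPKM in the knockout library and 689 FPKM in the wild-type library, a ratio of 0.670 (0.645 to 0.696). Gstk1, the kappa enzyme of mitochondria and peroxisomes, had a ratio of 0.709 (0.645 to 0.781). Gstz1, which is the maleylacetoacetate isomerase of tyrosine breakdown, was at 31.99 FPKM in the knockout library and 34.8 FPKM in the wild-type library, and its interval of 0.803 to 1.05 included 1.

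The Mgst genes encode membrane proteins of another fold and summed to 1321 FPKM in the knockout library and 1721 FPKM in the wild-type library, a ratio of 0.767 (0.745 to 0.790). Mgst3 (chromosome 1, 167371966 to 167393841) was the most abundant conjugating enzyme in both libraries, at 721 FPKM in the knockout library and 945 FPKM in the wild-type library, a ratio of 0.762 (0.738 to 0.788). Mgst1 (chromosome 6, 138140316 to 138156755), a transferase and peroxidase of the endoplasmic reticulum and the outer mitochondrial membrane, was at 236 FPKM in the knockout library and 384 FPKM in the wild-type library, a ratio of 0.616 (0.584 to 0.649). Mgst2 (chromosome 3, 51660360 to 51682677), which can make leukotriene C4, was at 364 FPKM in the knockout library and 392 FPKM in the wild-type library, and its interval of 0.855 to 1.01 included 1. Mgst2 and Gstz1 were the members of the family nearest to equal values, and scaling to equal sums put both above 0.

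**Figure D2:**
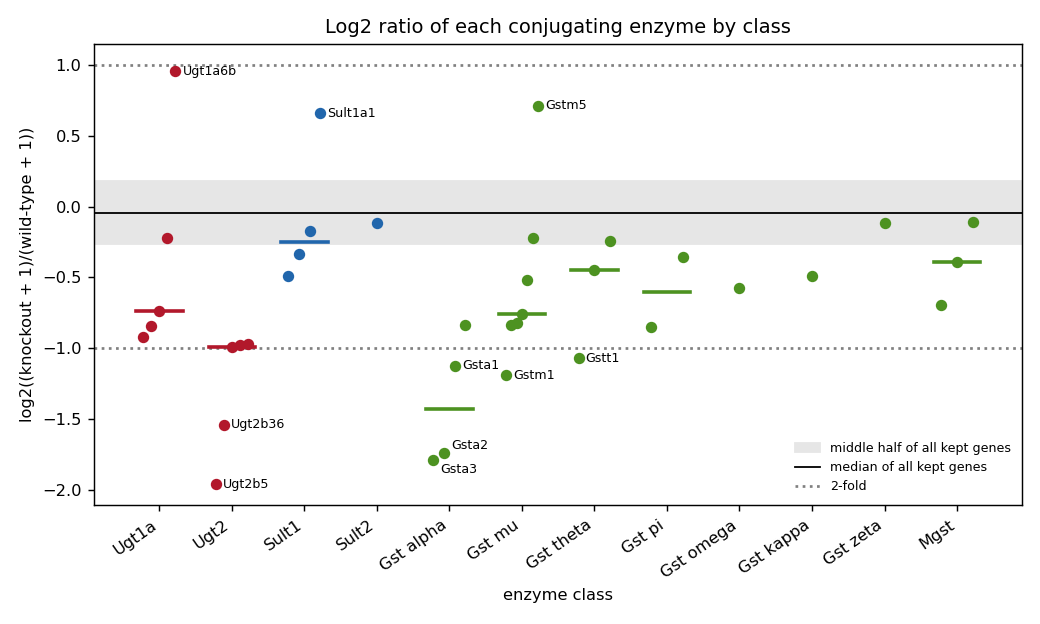
Log2((knockout + 1)/(wild-type + 1)) of each kept conjugating enzyme (points) by class, with class medians as coloured bars, the median of all kept genes as a black line and their quartile range as a grey band. The alpha class has the lowest median at -1.43, midway between Gsta1 and Gsta2, and the Ugt2 genes the next at -0.99. By summed FPKM these classes were close, with ratios of 0.478 (0.433 to 0.529) and 0.487 (0.475 to 0.4996). The Sult1 median and the lone Sult2 and zeta genes lie in the grey band. Genes past 2-fold or above 0 are named.

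Set against each other, the medians of the log2 ratios differed by -0.77 between glucuronidation and sulfation, by -0.31 between glucuronidation and glutathione, and by 0.46 between sulfation and glutathione. Lower at 1.5-fold were 8 of 10 kept members of glucuronidation, 0 of 5 of sulfation and 11 of 22 of glutathione. Over all kept genes 7.26% were lower by that rule. The summed FPKM kept the same order, with ratios of 0.557, 0.797 and 0.685. Within the members at 10 FPKM or more, 7 of 8 Ugt, 0 of 3 Sult and 10 of 21 glutathione genes were lower at 1.5-fold. The share of all genes at that level was 8.56%. For Sult, 0 of 5 and 0 of 3 are no departure from these shares. No test separates the families here, and sulfation rests on few genes. All 3 differences depended on the members counted. Between glucuronidation and glutathione the difference was -0.19 without the Mgst genes and turned to 0.32 when genes under 1 FPKM, most of them at or near 0, were included. With those genes the difference between glucuronidation and sulfation was -0.23. At a minimum of 5 FPKM the difference between sulfation and glutathione was 0.24, as the Sult median was then -0.34 (3 genes).

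**Figure D3:**
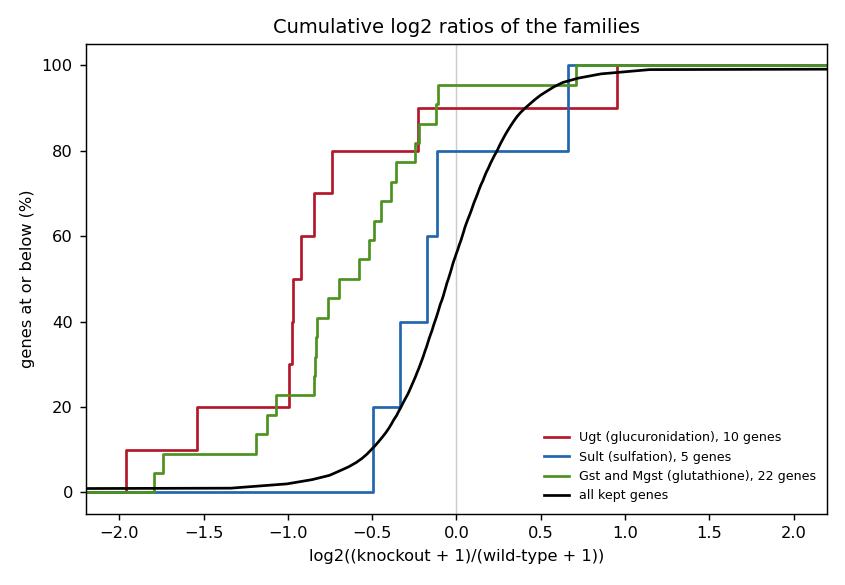
Share of genes (%) at or below each log2((knockout + 1)/(wild-type + 1)) for the 10 Ugt, 5 Sult and 22 Gst and Mgst genes kept and for all 11504 kept genes (black). The Ugt curve climbs first, with its median at -0.95, the glutathione curve follows at -0.64, and the Sult curve lies nearest to that of all genes, whose median is -0.05.

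The 8 enzymes with traces rested on at most 12 estimated fragments per library. They were Gsto2, Sult4a1, Sult6b1, Ugt1a10, Ugt1a2, Ugt2b1, Ugt2b38 and Ugt8a, the gene of ceramide galactosyltransferase. The 18 listed at 0 in both libraries were Gstt4, the 11 Sult genes Sult1c1, Sult1e1, Sult2a1 to Sult2a7, Sult3a1 and Sult5a1, and the 6 Ugt genes Ugt1a5, Ugt2a1, Ugt2a2, Ugt2b37, Ugt3a1 and Ugt3a2. Differences of these 26 genes were not detectable at this depth.

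Many conjugating enzymes lie in gene clusters, and the kept members of a cluster mostly had the same direction. That was also the direction of 34 of all 37 kept members, in clusters or not, so it is not a trait of the clusters. On chromosome 5 (86889767 to 87591594), 10 Ugt2 genes and 3 Sult1 genes lie side by side; the 7 kept ones were all lower, with log2 ratios of -1.96 to -0.34. The 6 other kept genes within 1 Mb had a median of 0.22, and 0 of them were lower at 1.5-fold. Over all kept genes the median was -0.05 and 7.26% were lower at 1.5-fold, so 0 of 6 is no departure from that share. On chromosome 3 (107895821 to 108044894), 6 of the 7 Gstm genes were lower, beside a median of -0.06 over 25 neighbours, 0 of which were lower at 1.5-fold. Gstm5, the exception, lies at the edge of that cluster and on the plus strand, opposite to the other 6. The Gstp neighbours likewise held 0 of 47 genes lower at 1.5-fold, whereas 6 of 28 genes around the Gstt genes on chromosome 10, 3 of 17 around the Ugt1a locus and 2 of 12 around the Gsta genes on chromosome 9 were.

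**Figure D4:**
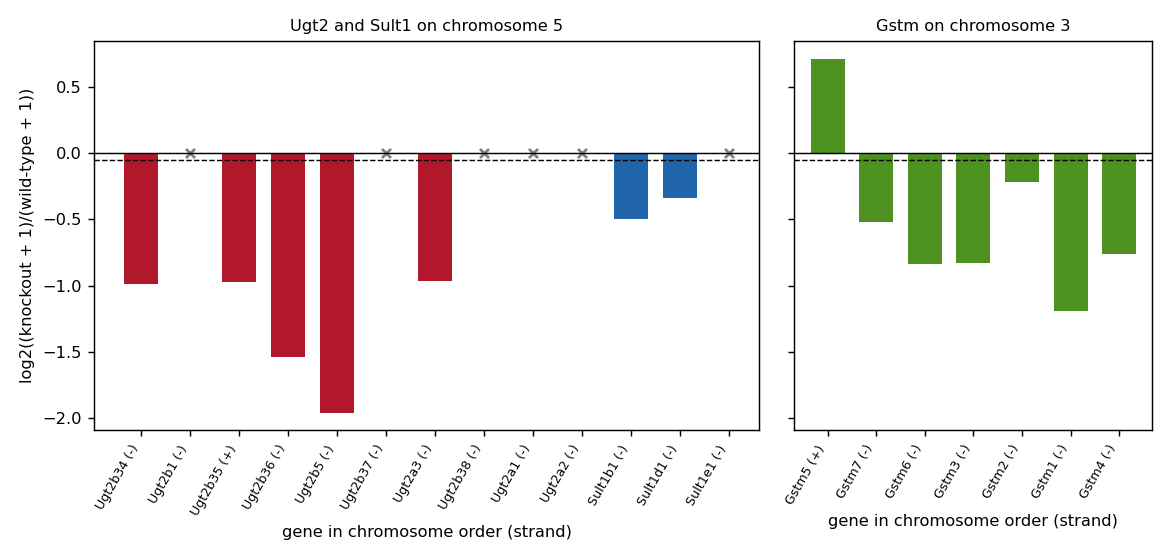
Log2((knockout + 1)/(wild-type + 1)) of the conjugating enzymes in chromosome order on chromosome 5 (left, Ugt in red and Sult in blue) and chromosome 3 (right), with the strand in brackets, crosses for genes under 1 FPKM in both libraries and a dashed line at the median of all kept genes, -0.05. Bars reach -1.96 at Ugt2b5, shorten to -0.49 and -0.34 at Sult1b1 and Sult1d1, and point up only at Gstm5 (0.71).

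The promoters of 34 of the 37 kept enzymes were matched in RefSeq (from 250 bases before to 50 bases after the start site) and searched on both strands for 3 motifs. TGACNNNGC, the core to which NRF2 binds, was in 4 of 34, all in the glutathione family (Gsta3, Gstm5, Gstm7 and Mgst1), against 17.4% of kept genes and 14.0% of all promoters. GCGTG, the core bound by the aryl hydrocarbon receptor, was in 0 of 9 Ugt, 3 of 5 Sult and 6 of 20 glutathione promoters, against 55.7% of kept genes and 35.2% of all promoters. GTTAAT, a part of the site of HNF1, was in 4 of 9 Ugt (Ugt1a1, Ugt1a6a, Ugt1a9 and Ugt2a3), 2 of 5 Sult and 1 of 20 glutathione promoters, against 5.58% of kept genes and 8.24% of all promoters. Ugt1a1 and Ugt2a3, which both hold GTTAAT, had log2 ratios of -0.23 and -0.97. The matches are letters in a window and nothing is drawn from them about the factors.

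Genes that supply the co-substrates had medians nearer to 0 than the transferases that use them for glucuronidation and glutathione. For sulfation the medians were about the same over the 5 kept Sult genes. That Sult median is the value of Sult1c2, at about 22 fragments in the knockout library and 26 in the wild-type library. Over the 3 Sult genes at 10 FPKM or more it was -0.34, farther from 0 than the -0.16 of the supply list. All 5 genes of UDP-glucuronic acid supply were lower but 0 at 1.5-fold, with a median log2 ratio of -0.35. Over all kept genes 56% were lower and 7.26% were lower at 1.5-fold. Among genes at 10 FPKM or more in at least 1 library 64.8% were lower. Ugdh, the enzyme that makes UDP-glucuronic acid, was at 161 FPKM in the knockout library and 232 FPKM in the wild-type library. Gusb, which hydrolyses glucuronides, was at 8.66 FPKM in the knockout library and 7.62 FPKM in the wild-type library, a ratio whose interval, 0.929 to 1.39, included 1. For sulfation, 7 of 10 genes of PAPS supply and sulfate uptake were lower, 0 at 1.5-fold, with a median of -0.16. The 7 of 10 is near the share of all genes at 10 FPKM or more. The PAPS synthase gene Papss2 was at 155 FPKM in the knockout library and 182 FPKM in the wild-type library, and the 3 kept sulfatase genes had a median of -0.30.

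For glutathione, 13 of 17 genes of its synthesis and recycling were lower (56% of all kept genes), with a median of -0.22. At 1.5-fold 2 were lower (7.26% of all kept genes). Those 2 were Gclm, the modifier subunit of the rate-limiting ligase, at 86.2 FPKM in the knockout library and 137 FPKM in the wild-type library, and the dipeptidase gene Dpep1, at 314 FPKM in the knockout library and 484 FPKM in the wild-type library. Gclc, the catalytic subunit, was at 18.7 FPKM in the knockout library and 17.0 FPKM in the wild-type library, and its ratio interval of 0.976 to 1.24 included 1. Of 13 other glutathione-linked enzymes 8 were lower, near the 56% of all kept genes. At 1.5-fold 3 were lower (7.26% of all kept genes) and 1 was higher (4.83%). Hagh, the second enzyme of the glyoxalase pathway, was at 81.4 FPKM in the knockout library and 153 FPKM in the wild-type library, and Gpx4, the lipid hydroperoxide peroxidase, at 419 FPKM in the knockout library and 688 FPKM in the wild-type library. The gene higher at 1.5-fold was Gpx3, the secreted glutathione peroxidase, at 14.0 FPKM in the knockout library and 8.07 FPKM in the wild-type library, a ratio of 1.73 (1.37 to 2.22).

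The pumps that export conjugates were mixed. Of 6 kept genes 4 were lower (56% of all kept genes), 2 at 1.5-fold (7.26% of all kept genes). Abcg2, which exports sulfates and other conjugates into the lumen, was at 106 FPKM in the knockout library and 178 FPKM in the wild-type library, and Abcc2, the apical pump for glucuronides and glutathione conjugates, at 51.3 FPKM in the knockout library and 79.5 FPKM in the wild-type library. On the higher side, Abcc1 was at 1.41 FPKM in the knockout library and 0.663 FPKM in the wild-type library, a ratio of 2.13 (1.47 to 3.13). Abcc3, a basolateral pump, was at 28.4 FPKM in the knockout library and 25.1 FPKM in the wild-type library. Among 5 kept transferases of other kinds 4 were lower, beside the same 56% of all kept genes. The arylamine acetyltransferase gene Nat2 was at 25.9 FPKM in the knockout library and 41.3 FPKM in the wild-type library.

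Known regulators and co-regulated genes were read in the same way. NRF2 is the factor through which electrophiles induce many Gst genes. Of 13 kept targets of it outside the transferases 11 were lower (56% of all kept genes), with a median of -0.49. At 1.5-fold 5 were lower (7.26% of all kept genes), and 1 at 2-fold (2.04%). Gclm, 1 of these 5, and Gclc were also counted among the genes of glutathione synthesis above. Ephx1, the microsomal epoxide hydrolase, was at 7.12 FPKM in the knockout library and 15.7 FPKM in the wild-type library, while Txnrd1 was at 115 FPKM in the knockout library and 102 FPKM in the wild-type library. Nfe2l2, the gene of NRF2, was at 94.8 FPKM in the knockout library and 134 FPKM in the wild-type library. Of 14 receptors and partners 11 were lower, with a median of -0.37. Over all kept genes 56% were lower, and 64.8% among genes at 10 FPKM or more in at least 1 library. At 1.5-fold 2 of the 14 were lower (7.26% of all kept genes). The intestinal homeobox gene Cdx2 was at 64.8 FPKM in the knockout library and 124 FPKM in the wild-type library. The xenobiotic receptors stood on opposite sides. Nr1i3 (CAR) was at 27.0 FPKM in the knockout library and 41.4 FPKM in the wild-type library. Nr1i2 (PXR) was at 74.9 FPKM in the knockout library and 59.8 FPKM in the wild-type library. The part of these regulators in the conjugating enzyme values was not tested.

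**Figure D5:**
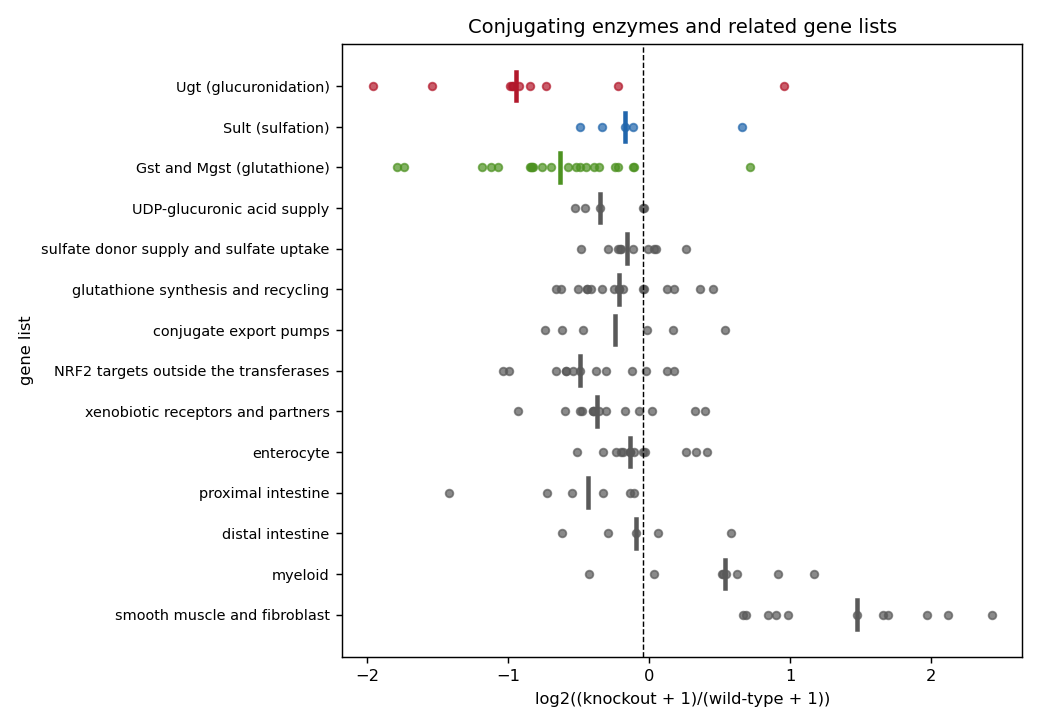
Log2((knockout + 1)/(wild-type + 1)) of the kept genes (points) of the 3 conjugating families and of related gene lists and cell type markers, with list medians as vertical bars and the median of all kept genes as a dashed line at -0.05. The medians run from -0.95 for Ugt to 1.48 for smooth muscle and fibroblast markers, and the supply lists lie between -0.35 and -0.16.

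Cell type markers give the setting of these values. Over all kept genes 56% were lower, with a median of -0.05, and at 1.5-fold 7.26% were lower and 4.83% higher. Among genes at 10 FPKM or more in at least 1 library 64.8% were lower, with a median of -0.11. Enterocyte markers defined the tissue, with all 13 kept and a sum of 63201 FPKM in the knockout library and 70008 FPKM in the wild-type library; 10 were lower, 0 at 1.5-fold, with a median of -0.14. All 6 kept markers of the proximal intestine were lower, 2 at 1.5-fold, with a median of -0.44. Lct, Fabp1 and Apoa4 among them were already counted as enterocyte markers. The alcohol dehydrogenase gene Adh1, also among them, was at 241 FPKM in the knockout library and 647 FPKM in the wild-type library. Markers of the distal intestine had a median of -0.09, with 3 of 5 lower. Medians were 0.22 for crypt stem cell, 0.28 for Paneth cell and 0.13 for goblet cell markers, each with 3 of 5 kept markers higher. Tuft cell and lymphocyte markers had medians of 0.05 and -0.06, with 2 of 4 and 5 of 10 kept markers lower. All 11 kept markers of smooth muscle and fibroblasts were higher, all at 1.5-fold, with a sum of 61.7 FPKM in the knockout library and 18.9 FPKM in the wild-type library, and 7 of 8 myeloid markers were higher, with a sum of 91.7 FPKM in the knockout library and 71.4 FPKM in the wild-type library. Of 6 liver markers 2 were kept. Cps1, which enterocytes also express, was at 109 FPKM in the knockout library and 89.9 FPKM in the wild-type library, and Ttr was at 1.66 FPKM in the knockout library and 3.44 FPKM in the wild-type library. Alb, Apoh and Serpina1a were under 1 FPKM in both libraries, with Alb at 0.108 FPKM in the knockout library and 0.335 FPKM in the wild-type library, and Fgb was at 0 in both. The part of the cell mixture and of the stretch of intestine sampled in the conjugating enzyme values was not tested.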

How the data were processed

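The authors deposited 1 FPKM value per gene for each library, without counts; no header names the unit, which was inferred from the values and from Cuffnorm in the submitters' processing notes. Those notes also list Bowtie2 2.2.3, TopHat2 2.0.13, SAMtools 0.1.19 and the build mm10, with Cuffnorm at 2.2.1; not given in the sources used here are the settings, the annotation, the use of strand and the handling of fragments shared between copies. RNA came from the RNeasy Mini kit and was built into libraries by TruSeq stranded mRNA preparation, per the labels' protocols.

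With 1 library per genotype no test was run. Differences were described by the log2 ratio with 1 FPKM added, by size rules of 2-fold and 1.5-fold, by FPKM sums and by counting intervals. Fragment numbers were estimated from the steps between low values: of 602 genes below 0.1 FPKM, 246 shared 1 ratio between the libraries, 0.963, taken as the relative worth of 1 fragment, and 225 bases were taken off each transcript length. PCR duplicates were not marked by molecular identifiers, so intervals cover counting error only and assume the transcript length. Intervals of sums are Poisson intervals on the log scale. Transcripts, coordinates and 3′ UTRs were those of GENCODE M21 (GRCm38, which mm10 follows), and promoters and miRNAs from RefSeq on GRCm38.p6. The scripts (Python 3.11.15, pandas 2.3.3, NumPy 2.4.6, SciPy 1.17.1, matplotlib 3.10.9) were tested on simulated data. The members, gene lists, marker lists and rules for naming genes were chosen with earlier results of these data known. Members past 2-fold, members past 1.5-fold at 10 FPKM or more and the 3 most abundant of each family are given in full, and from each other list the most abundant gene and up to 4 with the largest log2 ratios could be named; Gclc, Abcc3, Txnrd1, Nr1i2, Alb, Apoh, Serpina1a and Fgb were added after their values were seen. Alternatives were pseudocounts of 0.1 and 5 FPKM, other filters, 3 scalings, members left out and transcript length.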

Additional observations from a re-analysis of the deposited data

How the results depend on the processing

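Of 157 values recomputed under alternative settings, 118 stayed within the counting error of the reported value or within 1.5 times the reported count, 38 moved further and 1 turned its sign. The cause was not tested except where the setting itself removes genes. With a pseudocount of 0.1 FPKM, 4 Ugt genes were lower and 1 higher at 2-fold and 1 Sult gene was higher; with 5 FPKM the Ugt median log2 ratio was -0.84. Without a filter the medians were -0.23 for Ugt and -0.55 for glutathione genes, and their difference was 0.32. Multiplying the knockout values by 1.0976 for equal sums gave 1 Ugt gene higher and 3 glutathione genes lower at 2-fold, medians of -0.82 for Ugt and -0.50 for glutathione genes, and summed ratios of 0.611, 0.875 and 0.752 for Ugt, Sult and glutathione genes. Equal upper quartiles gave 1 Ugt gene higher, medians of -0.83 and -0.52, and summed ratios of 0.604, 0.865 and 0.744. A median of 0 over all kept genes gave 1 Ugt gene higher and summed ratios of 0.578, 0.828 and 0.712. Over all kept genes, 2-fold lower and higher calls numbered 235 and 154 as deposited, 185 and 209 at equal sums, 193 and 199 at equal upper quartiles, and 215 and 175 at a median of 0; equal sums moved the median of all genes to 0.07. The conjugating enzymes were 31 lower and 6 higher at equal sums, and 32 and 5 at equal upper quartiles.

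Without the Ugt1a genes the Ugt sum ratio was 0.487. Without the Mgst genes the glutathione median was -0.76, its sum ratio 0.626 and its difference from Ugt -0.19. Without the most abundant member of each family the sum ratios were 0.611, 0.854 and 0.662. In 2 alternatives chosen after seeing the data, removing the trend with transcript length gave a glutathione median of -0.54 and a difference from Ugt of -0.41, and leaving out members with over 10% of 50-base windows shared left 1 Ugt and 2 glutathione genes lower at 2-fold, sum ratios of 0.499 and 0.724, a glutathione median of -0.51 and a difference of -0.48. No paired analysis was possible because each genotype has 1 library. Depth limits the members of lowest level, Gsta2, Sult1a1, Ugt1a6a and Sult1c2, which rest on at most 33 estimated fragments in either library.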
